A study of Drosophila melanogaster with 6 samples.

Results

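The genes described here encode the machinery of chemical transmission at synapses, together with general markers of neurons. They are 36 genes named by symbol: 13 of vesicle release, 6 of the active zone, 6 of endocytosis, 7 of transmitter synthesis and transport, and 4 of general neuronal function. All 36 had a row among the 17698 gene identifiers counted, and 32 of them were among the 9181 genes abundant enough to test. Transcripts were measured by poly(A) RNA-seq in antennae of female Drosophila melanogaster, in 3 PCD-blocked and 3 control libraries. PCD-blocked flies had the genotype peb-Gal4/+;Or49a-GFP/UAS-p35 and carried p35, a baculoviral inhibitor of caspases, so that programmed cell death (PCD) was blocked. Control flies, peb-Gal4/+;Or49a-GFP/+, lacked UAS-p35 and shared the driver and the reporter. Each library came from antennae of about 350 flies, pooled, and libraries of the groups were matched in 3 sample pairs. The age of the flies is not given in the labels. The driver peb-Gal4 sets which cells make p35, and all cells of the antenna were measured together. Libraries held 15588725 to 17499907 gene counts in the PCD-blocked group and 17370320 to 17808516 in the control group.

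A neuron releases transmitter when calcium enters at the active zone, a protein scaffold that holds vesicles close to calcium channels. Fusion is carried out by SNARE proteins on the vesicle and on the cell membrane, after priming factors have made the vesicle ready and under the control of calcium sensors. The vesicle membrane is then recovered by endocytosis and refilled with transmitter by a transporter. Olfactory and mechanosensory neurons of the fly antenna send their axons to the brain, and most of them use acetylcholine. Their synapses lie in the brain, so antennal RNA holds the transcripts of their cell bodies.

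The level of each gene was compared as CPM (counts scaled to a common library size by the TMM method) per kilobase (kb) of annotated exon. The general neuronal genes nrv3, which encodes a beta subunit of the sodium pump, and Appl, the fly homologue of the amyloid precursor protein, had the highest levels of the 36. They stood at 278 and 251 CPM per kb in PCD-blocked antennae and at 266 and 258 CPM per kb in control antennae. The vesicle SNARE gene nSyb followed, with 196 CPM per kb in PCD-blocked and 187 in control antennae, ahead of the synaptotagmin gene Syt4 at 176 and 166. Among the other SNARE genes, Syx1A, for the syntaxin of the cell membrane, had 53.3 and 53.9 CPM per kb. Snap25, for its partner SNARE, had 10.9 CPM per kb in PCD-blocked and 8.41 in control antennae, the lowest level of the 13 release genes. The active zone genes lay between 14.1 (Liprin-alpha) and 60.7 (unc-13) CPM per kb in PCD-blocked antennae, and between 13.8 and 53.8 in control antennae. Of 35 neighbouring steps in the order of the 36 genes by control level, 14 joined genes whose ranges over the control libraries overlapped, for example shi with Cadps and brp with ChAT.

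**Figure D1:**
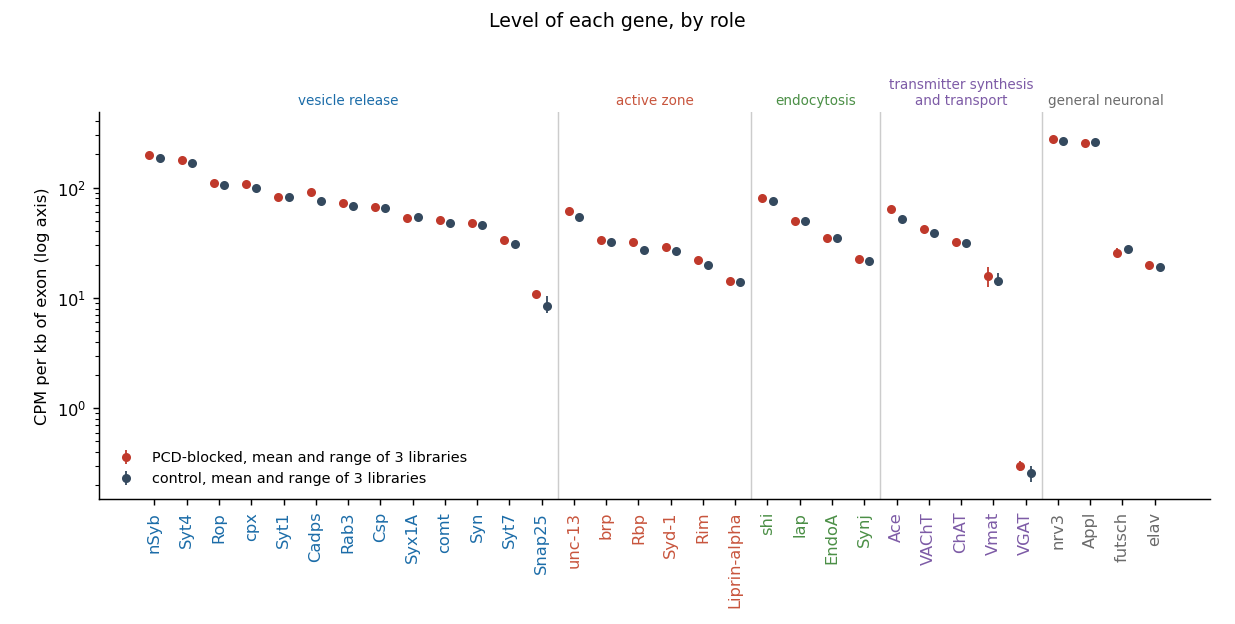
Level of each gene in CPM per kb of exon, on a log axis, with points for the mean and bars for the range of 3 libraries per group and genes ordered by role. The 32 genes with counts in every library are drawn; VGAT, at 0.300 CPM per kb in PCD-blocked and 0.257 in control antennae, stood far below the cholinergic genes Ace, VAChT and ChAT.

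The genes of acetylcholine were all well above Gad1, VGlut and VGAT, which serve the synthesis of GABA or the loading of GABA and glutamate into vesicles. ChAT, which makes acetylcholine, had 32.4 CPM per kb in PCD-blocked and 31.7 in control antennae. VAChT, which loads it into vesicles, had 42.4 and 38.6 CPM per kb, and Ace, which breaks it down in the synaptic cleft, had 63.6 and 52.3. Transcripts of Gad1, VGlut and VGAT were at or near 0. Other transporter genes were not: Gat, for a GABA transporter, had 55 CPM in PCD-blocked and 74.7 CPM in control antennae. The amino acid transporter gene Eaat2 had 1867 CPM in PCD-blocked and 1978 CPM in control antennae. Gad1, which makes GABA, had 0 counts in all PCD-blocked libraries together and 1 count in the control libraries. The vesicular glutamate transporter gene VGlut had 9 counts in PCD-blocked and 10 in control libraries, and the GABA transporter gene VGAT had 41 and 36. A count of 0 in 1 library allows up to 0.171 to 0.192 CPM in PCD-blocked and 0.168 to 0.173 CPM in control libraries, for counting error only. Vmat, the vesicular transporter of amines, stood between these groups, at 15.8 CPM per kb in PCD-blocked and 14.1 in control antennae.

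PCD-blocked antennae were then compared with control antennae across all tested genes. In PCD-blocked antennae, 11 of the 32 tested genes rose and 0 fell, and 21 did not pass (edgeR quasi-likelihood test with Benjamini-Hochberg adjusted p under 0.05). Among all tested genes 14.3% were called higher and 13.3% lower, and among those with a mean of at least 50 CPM, where 30 of the 32 lay, 17.5% and 20.1%. At an unadjusted edgeR p under 0.05, 15 were higher and 0 lower. The share of all tested genes at that limit was not counted, and cannot be smaller than the adjusted 14.3% and 13.3%. DESeq2 called 5 higher and 0 lower, where 6.33% and 6.55% of all genes were called, and limma-voom 10 and 0, where 14.5% and 13.5% were called. With no block for the sample pair, edgeR called 5 higher and 0 lower, where 12.2% and 11% of all genes were called. All 32 differences were below 1.5-fold. Cadps, for a vesicle priming factor, and Ace, for acetylcholinesterase, rose by 22.3% and 21.5%, and the active zone genes Rbp and unc-13 by 16.8% and 12.8%. By role, the count of risen genes was 5 of 13 for vesicle release, 4 of 6 for the active zone and 2 of 5 for transmitter genes, against 0 of 4 each for endocytosis and general neuronal genes (1 and 0 at an unadjusted edgeR p under 0.05, and 0 each with DESeq2 and limma-voom). Without pair 2, and likewise without pair 3, 1 of 13 release genes rose (Cadps), where 8.18% and 10.7% of all genes were called higher. The share of risen release genes was then below that of all genes. With any 1 pair left out, 2 to 3 of 6 active zone genes rose, where 8.18 to 11.5% of all genes were called higher.

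The direction was shared more widely than the calls. The log2 fold change was positive for 28 of the 32 genes, or 87.5%, against 50.2% of all tested genes, and the median was 0.08 on the log2 scale, against 0.00. Every PCD-blocked library lay above every control library for 18 of the 32 genes. This held for 19.9% of all tested genes and for 22.3% of those with a mean of at least 50 CPM. The opposite order held for 0 of the 32, against 18.8% of all tested genes. Within pairs, 29, 26 and 25 of the 32 genes were higher in PCD-blocked antennae in sample pairs 1, 2 and 3. Their median log2 ratios were 0.07, 0.08 and 0.08, against 0.00, 0.00 and 0.01 over all tested genes. In all 3 pairs, 22 of the 32 were higher, against 2648 of the 9181 tested genes. The number of calls depended on the pairs included. Without sample pair 2, 5 genes were called higher and 0 lower, where 8.18% and 7.91% of all genes were called. Without sample pair 3, 5 were higher and 0 lower (10.7% and 10.9% of all genes), and without sample pair 1, 8 were higher and futsch was lower (11.5% and 10.9% of all genes), with a log2 fold change of -0.21 for futsch and an adjusted p of 0.0118 (edgeR). With plain library totals in place of TMM, 16 genes were called higher, and calls over all genes split into 1704 higher and 980 lower, against 1314 and 1225 with TMM.

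In bulk RNA, fewer or more cells of a type and less or more RNA per cell cannot be told apart. The summed level of the 5 neuronal markers elav, nSyb, brp, Syt1 and fne was 2289 to 2387 CPM in PCD-blocked and 2187 to 2275 CPM in control antennae, and of these fne alone passed. All of them but fne are among the genes described here, so this sum is not a separate measure of neurons. The summed level of the 6 glial markers was 2940 to 3025 CPM in PCD-blocked and 3469 to 3481 CPM in control antennae. Most of it came from Gs2, which fell, while repo, the defining glial factor, rose (log2 fold change 0.34). The glial markers alrm and wrapper were under 1 CPM in every library. The 9 photoreceptor markers summed to 3.93 to 4.65 CPM in PCD-blocked and 3.34 to 3.58 CPM in control antennae, and ninaE, the main opsin gene of the eye, had at most 0.231 CPM. Of the olfactory neuron markers Orco, Ir25a and Ir8a, which summed to 3901 to 3948 CPM in PCD-blocked and 3651 to 3756 CPM in control antennae, Ir25a rose and Ir8a fell. The 3 support cell markers lush, Os-C and nompA summed to 9176 to 9398 CPM in PCD-blocked and 9958 to 10578 CPM in control antennae, with lush lower and nompA higher. The part of these cell types in the differences was not tested.

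**Figure D2:**
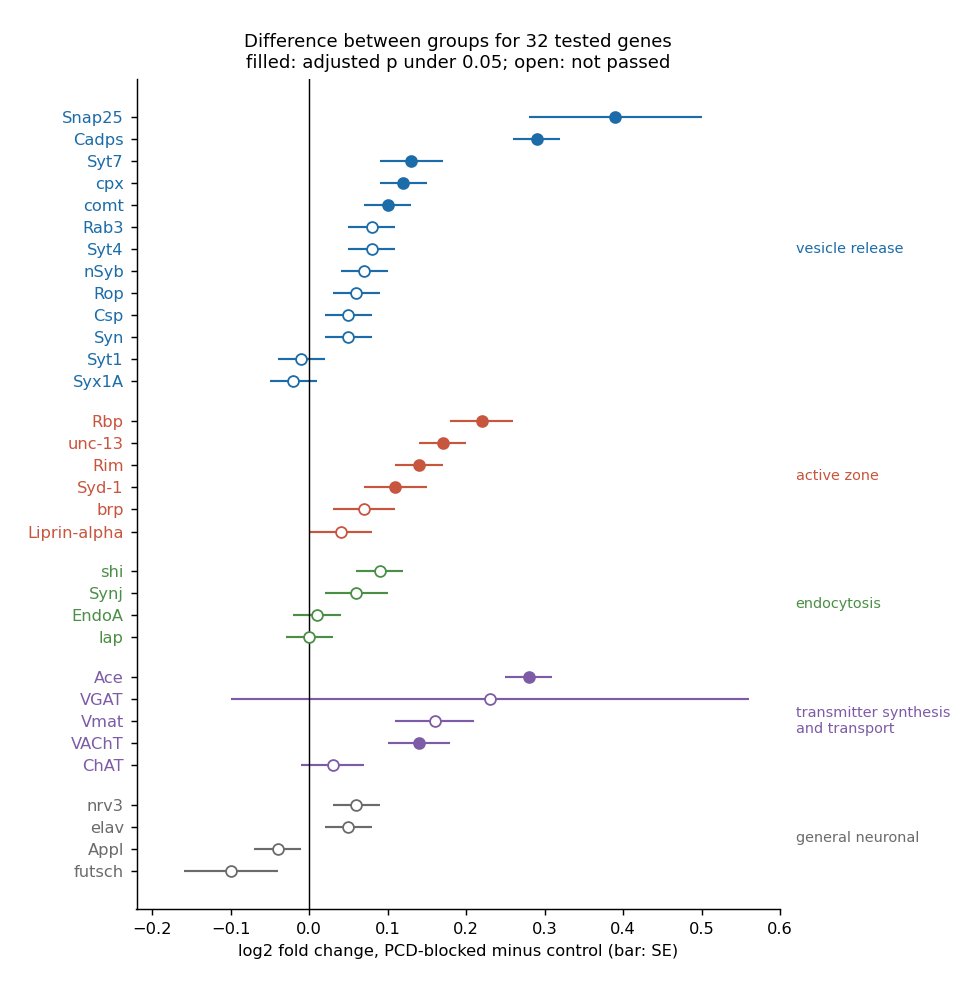
Log2 fold change, PCD-blocked minus control, of the 32 tested genes, grouped by role, with bars for the standard error (SE). Filled points passed at an adjusted p under 0.05: they span 0.10 (comt) to 0.39 (Snap25), all to the right of 0, and endocytosis and general neuronal genes have none.

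Among the 13 release genes, Cadps and Snap25 had the largest rises. Cadps (FBgn0053653, chromosome 4, 1230837 to 1271759 in BDGP6) encodes CAPS, a priming factor best known for the release of dense-core vesicles. Its level was 545, 516 and 523 CPM in PCD-blocked libraries 1 to 3, against 437, 425 and 432 CPM in control libraries 1 to 3. The groups did not overlap, and each PCD-blocked library stood well above its paired control. The log2 fold change was 0.29 ± 0.03 (SE), a rise of 22.3%, with an adjusted p of 0.00023 (edgeR). Snap25 (FBgn0011288, chromosome 3L) had 24.3, 26.1 and 24.6 CPM in PCD-blocked libraries and 23.6, 17.3 and 16.6 CPM in control libraries. Control 1 lay close to the PCD-blocked libraries, so that the ratio within pair 1 was 0.04 on the log2 scale, against 0.59 and 0.56 in pairs 2 and 3. Its log2 fold change was 0.39 ± 0.11 (SE), with an adjusted p of 0.0241 (edgeR). The adjusted p of Snap25 was 0.204 leaving out pair 2 and 0.107 leaving out pair 3 (edgeR), and 0.115 by DESeq2. Without pair 1 the log2 fold change of Snap25 was 0.57.

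The other 3 risen release genes were higher by 7.49 to 9.32%. The complexin gene cpx, whose product binds the assembled SNARE complex and restrains fusion until calcium arrives, had 1227, 1231 and 1214 CPM in PCD-blocked libraries, against 1161, 1127 and 1101 CPM in controls. The groups were separate, and the log2 fold change was 0.12 ± 0.03 (SE), with an adjusted p of 0.0279 (edgeR). Syt7, a synaptotagmin with high calcium affinity in mammals, had 109, 113 and 111 CPM in PCD-blocked libraries, against 107, 101 and 97 CPM in controls (log2 fold change 0.13 ± 0.04 SE, edgeR adjusted p = 0.047). The lowest PCD-blocked library and the highest control library of Syt7, both of pair 1, were close to each other. The gene comt encodes NSF, the ATPase that takes spent SNARE complexes apart. It had 155, 156 and 161 CPM in PCD-blocked libraries, against 147, 142 and 149 CPM in controls (log2 fold change 0.10 ± 0.03 SE, edgeR adjusted p = 0.044). The 3 calls were each lost without pair 2 and without pair 3, with edgeR adjusted p-values from 0.135 to 0.241, and with no block (0.0600 for cpx, 0.0834 for comt and 0.0718 for Syt7). In all, the call of comt was lost in 7 of 11 alternatives, that of Syt7 in 6 and that of cpx in 3, and DESeq2 gave adjusted p-values of 0.447 for comt and 0.411 for Syt7.

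The 8 release genes that did not pass had log2 fold changes between -0.02 and 0.08. They include the core of the fusion machinery. The gene of the vesicle SNARE, nSyb, had 799, 801 and 789 CPM in PCD-blocked libraries, against 787, 762 and 731 CPM in controls (log2 fold change 0.07 ± 0.03 SE, edgeR adjusted p = 0.172). Its libraries did not overlap between groups, but the difference of the means was smaller than the range among controls. The fast calcium sensor gene Syt1 had 603, 598 and 567 CPM in PCD-blocked libraries, against 600, 599 and 583 CPM in controls, and the groups overlapped fully. Syx1A likewise overlapped, with 213 to 232 CPM in PCD-blocked and 221 to 227 CPM in control antennae. Rop, the Unc18 homologue that holds syntaxin, Csp, a vesicle chaperone, and Syn, the synapsin that tethers vesicles, had log2 fold changes of 0.06, 0.05 and 0.05. Rab3, a GTPase of the vesicle membrane, and Syt4 both had 0.08, with adjusted p-values of 0.0847 and 0.107 (edgeR).

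**Figure D3:**
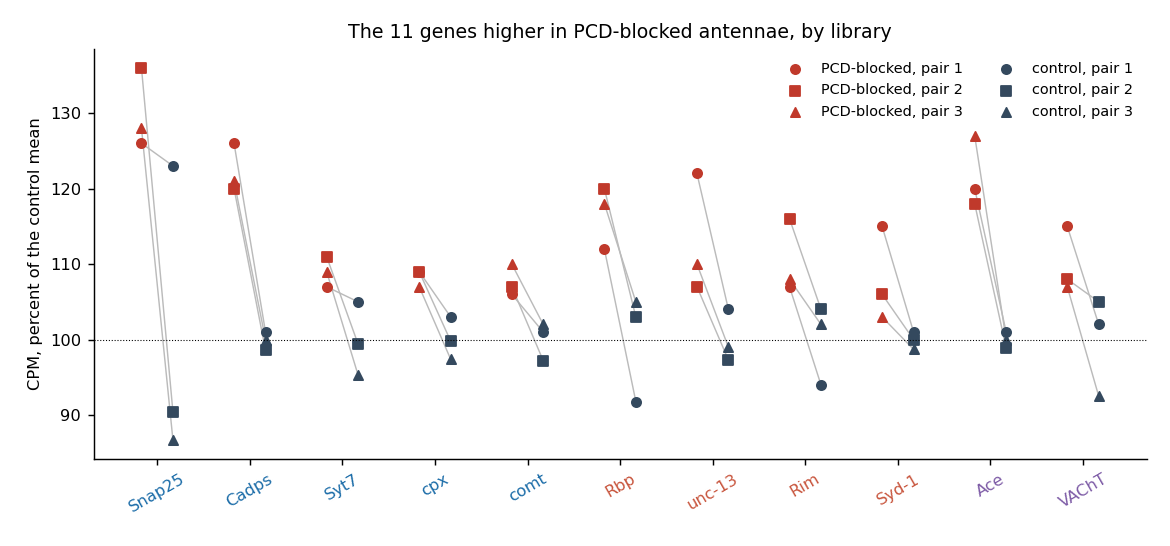
CPM of each library as a percent of the control mean for the 11 genes that rose, with 1 marker shape per sample pair and lines joining the libraries of a pair; the axis does not start at 0. PCD-blocked libraries span 103 to 136% and control libraries 86.7 to 123%, the last being control 1 for Snap25.

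Of the 6 active zone genes 4 rose, where 14.3% of all tested genes were higher, and all 6 log2 fold changes were positive. The difference between roles was not tested, and the share of risen transmitter genes was above that of the active zone in 4 alternatives, among them without pair 1 and without pair 2 (2 of 5 against 2 of 6 in each). Rbp (FBgn0262483, chromosome 3R, 15374635 to 15402543), the RIM-binding protein that ties calcium channels to the scaffold, had 279, 300 and 293 CPM in PCD-blocked libraries, against 229, 257 and 262 CPM in controls. The groups were separate, and the log2 fold change was 0.22 ± 0.04 (SE), with an adjusted p of 0.00173 (edgeR). The most abundant gene of this role was unc-13 (FBgn0025726, chromosome 4, 867824 to 912331), which encodes the priming factor that opens syntaxin. It had 1487, 1298 and 1332 CPM in PCD-blocked libraries, against 1260, 1182 and 1203 CPM in controls. PCD-blocked 1 stood above the rest, and the groups did not overlap (log2 fold change 0.17 ± 0.03 SE, edgeR adjusted p = 0.00614). Of its exon bases, 25.2% lie opposite exons of CR43361, asRNA:CR43425 and asRNA:CR44029, and these differed too. CR43361 and asRNA:CR43425 rose by 0.24 and 0.37 on the log2 scale, and asRNA:CR44029 fell by 0.21 (edgeR adjusted p = 0.00385, 0.00247 and 0.0295). The strand setting of the counting is not given, so reads of unc-13 and of these genes may be mixed or, in the overlap, counted to neither.

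Rim, a scaffold protein that recruits priming factors and calcium channels, had 303, 329 and 306 CPM in PCD-blocked libraries, against 267, 296 and 288 CPM in controls. The groups were separated by a narrow gap, between control 2 and PCD-blocked 1, and the log2 fold change was 0.14 ± 0.03 (SE), with an adjusted p of 0.0132 (edgeR). Syd-1, annotated as RhoGAP100F, encodes a protein that starts active zone assembly. It had 401, 372 and 362 CPM in PCD-blocked libraries, against 353, 350 and 345 CPM in controls (log2 fold change 0.11 ± 0.04 SE, edgeR adjusted p = 0.0437). PCD-blocked 1 was again the highest library. The call of Syd-1 was lost in 8 of 11 alternatives and that of Rim in 4. The remaining pair did not pass: brp, which encodes the ELKS-family protein Bruchpilot that forms the core of the scaffold, differed by 0.07 ± 0.04 (SE) on the log2 scale, and Liprin-alpha, a scaffold protein of early assembly, by 0.04 ± 0.04 (SE). For brp the ratio within pairs was 0.20 in pair 1, 0.02 in pair 2 and 0.00 in pair 3, and the groups overlapped.

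None of the 4 tested endocytosis genes passed. The dynamin gene shi, whose product pinches off vesicles, was the most abundant of them, with 487, 479 and 474 CPM in PCD-blocked libraries, against 454, 445 and 453 CPM in controls. Its groups did not overlap, and the log2 fold change was 0.09 ± 0.03 (SE), with an adjusted p of 0.0626 (edgeR). The genes of synaptojanin (Synj), which strips the clathrin coat, endophilin A (EndoA), which bends membrane, and the AP180 adaptor (lap) had log2 fold changes of 0.06, 0.01 and 0.00, each with an SE of 0.04 or less. Their libraries overlapped between groups. The stoned genes stnA and stnB, which are read from a shared transcript, were listed at 0 in all 6 libraries. In the annotation they share 100% of their exon bases, and HTSeq in its default mode counts reads that overlap more than 1 gene as ambiguous, not to a gene. Ambiguous reads made up 1.99% of counts in PCD-blocked and 1.91 to 1.93% in control libraries. The level of the stoned transcript cannot be read from these counts.

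Among the transmitter genes, Ace and VAChT rose. Ace (FBgn0000024, chromosome 3R, 13222951 to 13259517), for acetylcholinesterase, had 533, 523 and 561 CPM in PCD-blocked libraries, against 448, 439 and 444 CPM in controls. The gap between groups was far wider than the spread within either, and the log2 fold change was 0.28 ± 0.03 (SE), a rise of 21.5%, with an adjusted p of 0.000406 (edgeR). VAChT had 315, 296 and 292 CPM in PCD-blocked libraries, against 279, 289 and 253 CPM in controls (log2 fold change 0.14 ± 0.04 SE, edgeR adjusted p = 0.0334). PCD-blocked 3 and control 2 were nearly level, and VAChT did not pass leaving out pair 1 or pair 3 (edgeR adjusted p = 0.115 and 0.181) or by DESeq2 (0.101), nor in edgeR with no block (0.109).

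VAChT lies within the first intron of ChAT and shares the first exon of that locus. Of its exon bases, 8.54% are also in ChAT, and 15.1% of those of ChAT are in VAChT, on the same strand. Reads there may belong to either gene, and HTSeq in its default mode would count them to neither. ChAT itself had 129, 138 and 123 CPM in PCD-blocked libraries, against 122, 134 and 126 CPM in controls, and the groups overlapped (log2 fold change 0.03 ± 0.04 SE, edgeR adjusted p = 0.573). Vmat had 103, 130 and 154 CPM in PCD-blocked libraries, against 103, 105 and 137 CPM in controls. The level of Vmat was highest in pair 3 in both groups, and the ratio within pairs ran from 0.00 in pair 1 to 0.30 in pair 2. It did not pass (log2 fold change 0.16 ± 0.05 SE, edgeR adjusted p = 0.0532), and passed in 5 of 11 alternatives, of which leaving out pair 1 gave an edgeR adjusted p of 0.00867. Of the exon bases of Vmat, 26.2% lie opposite CG13330, which had at most 0.382 CPM in PCD-blocked and 0.403 CPM in control antennae. VGAT, from the few reads given above, had a log2 fold change of 0.23 ± 0.33 (SE), a difference that was not detectable at this depth.

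None of the 4 general neuronal genes passed. The most abundant, nrv3, had 1313, 1352 and 1314 CPM in PCD-blocked libraries, against 1313, 1247 and 1254 CPM in controls, so that the libraries of pair 1 were level (log2 fold change 0.06 ± 0.03 SE, edgeR adjusted p = 0.238). The pan-neuronal RNA-binding protein gene elav had 222, 211 and 207 CPM in PCD-blocked libraries, against 211, 212 and 194 CPM in controls, and the groups overlapped (log2 fold change 0.05 ± 0.03 SE, edgeR adjusted p = 0.293). Appl had a log2 fold change of -0.04 ± 0.03 (SE). The microtubule-associated protein gene futsch had 660, 563 and 576 CPM in PCD-blocked libraries, against 614, 681 and 630 CPM in controls. Its ratio was 0.11 in pair 1 and -0.27 and -0.13 in pairs 2 and 3, so the pairs differed in direction.

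The ratio of each gene was also set against that of elav within pairs. Of the other 31 tested genes, 7 had a larger ratio than elav in all 3 pairs, or 22.6%, close to the 18.9% of all tested genes. Only 6 of the 11 risen genes were among them, and the other was VGAT, of few reads and all but level with elav in pair 2. Cadps exceeded elav by 0.18 to 0.28 on the log2 scale within pairs, Ace by 0.18 to 0.26, Rbp by 0.07 to 0.23 and unc-13 by 0.05 to 0.17. Snap25 was below elav in pair 1 (-0.03). Against fne, a neuronal marker that rose itself, 1 of the 32 genes (Cadps, all but level with fne in pair 2) had a larger ratio in all 3 pairs, or 3.12%, against 8.13% of all tested genes.

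The summed level of each role shows how these differences add up. The active zone genes together had 2891 ± 114 CPM in PCD-blocked antennae and 2610 ± 13.1 CPM in control antennae (SD, n = 3 each). The release genes had 5243 ± 55.1 and 4924 ± 98.8 CPM, and the transmitter genes 1100 ± 27.4 and 960 ± 7.23 CPM, in PCD-blocked and control antennae. Abundant genes weigh most in such sums. The means in PCD-blocked and control antennae were 1372 and 1215 CPM for unc-13, 1224 and 1130 CPM for cpx, and 539 and 443 CPM for Ace. The 4 tested endocytosis genes, of which none passed on its own, summed to 1036 ± 1.71 CPM in PCD-blocked and 1002 ± 4.35 CPM in control antennae. Every PCD-blocked sum was above every control sum. Most of this difference lay in shi, with means of 480 CPM in PCD-blocked and 451 CPM in control antennae. The means of EndoA (144 CPM) and lap (304 CPM) were the same in both groups. The general neuronal genes summed to 3741 ± 105 CPM in PCD-blocked and 3762 ± 43.4 CPM in control antennae, less than 1 SD apart.

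The risen genes also had features that the choice of genes did not use. They had a median of 8.47 kb of exon and a median gene span of 34 kb, against 4.77 kb and 13.3 kb for the 21 tested genes that did not pass. Their median level was similar, 298 CPM against 270 CPM. Of the 10 tested genes with at least 8 kb of exon, 6 rose, and of the 22 shorter ones, 5. Exon length was tied to role: all active zone genes but Liprin-alpha (6.21 kb) had at least 8 kb, so the features cannot be told apart here. Over all tested genes, 20.6% of those with at least 8 kb of exon were called higher, against 14% of shorter ones; the 8 kb limit was set after the values were seen. By chromosome, all 3 tested genes on the small chromosome 4 (Cadps, unc-13 and Syt7) rose, where 25.8% of 89 tested genes were higher, and 6 of 12 on chromosome arm 3R, where 14.1% were higher. On 2L 0 of 3 rose and on 2R 0 of 5, where 14.3% and 15.5% of tested genes were higher, and on 3L 1 of 4 and on X 1 of 5, where 15.3% and 11.7% were higher.

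Beyond the 36 genes, 107 genes of the same processes were examined, of which 103 were tested, 24 rose and 14 fell. The risen genes were 23.3% of those tested, against 14.3% of all tested genes, and the fallen share was close to the 13.3% of all tested genes. Their median level was 143 CPM, against 29 CPM for all tested genes. Among tested genes with a mean of at least 50 CPM, 17.5% were called higher and 20.1% lower. Among 25 further genes of release and the vesicle cycle 9 rose and 2 fell, and among 20 of the active zone and synaptic adhesion 5 rose and 3 fell. The endocytosis list, of 21 genes, had 2 risen and 2 fallen members. In the general neuronal list 5 of 15 rose and 0 fell (0 lower also at an unadjusted edgeR p under 0.05, with DESeq2 and with limma-voom). Among 22 tested genes of transmitter synthesis, transport and uptake, 3 rose and 7 fell. The median log2 fold change of all 103 was 0.07, against 0.00 over all tested genes. Without pair 2, 12 of these genes rose and 10 fell, where 8.18% and 7.91% of all genes were called, and without pair 3, 16 and 12 (10.7% and 10.9%). DESeq2 called 13 and 13 (6.33% and 6.55%), and library totals gave 35 higher and 12 lower (18.6% and 10.7%).

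**Figure D4:**
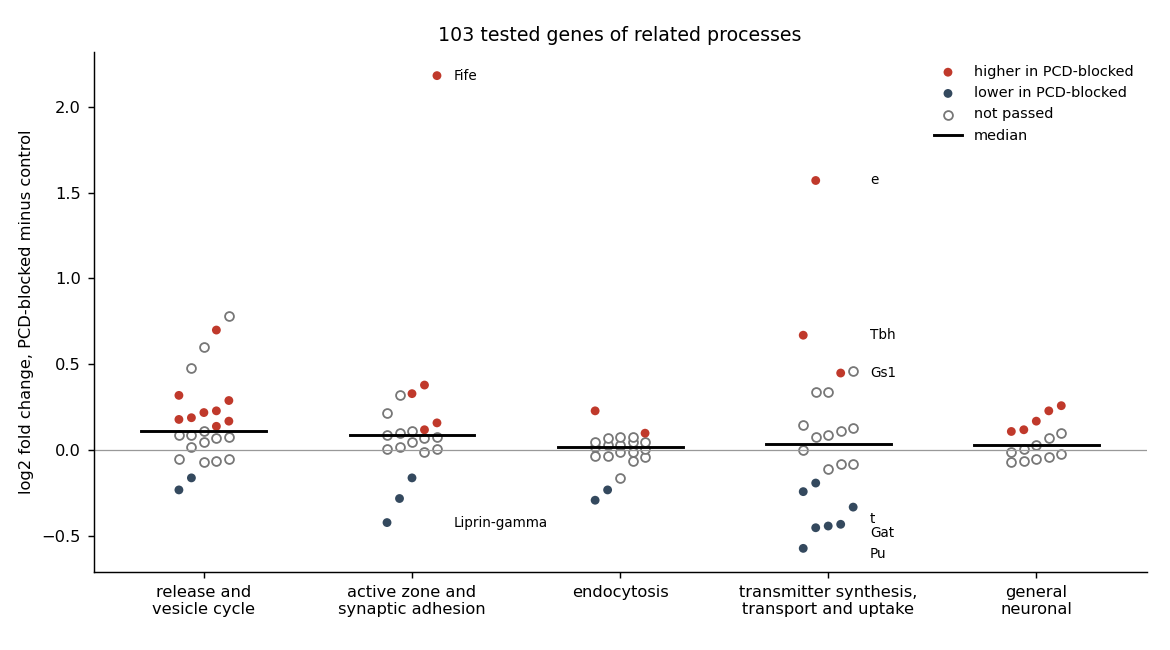
Log2 fold change, PCD-blocked minus control, of the 103 tested related genes by list, with a black line at each median. Fife, at 2.18, stands far above all others of its list, and the transmitter list reaches from -0.57 (Pu) to 1.57 (e).

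The largest difference was that of Fife (FBgn0264606, chromosome 3L, 2655415 to 2711690), which encodes an active zone protein related to Piccolo and RIM. Fife had 20.4, 21.4 and 23.6 CPM in PCD-blocked libraries, against 4.32, 4.34 and 5.83 CPM in controls. The groups were far apart, with a log2 fold change of 2.18 ± 0.09 (SE) and an adjusted p of 1.76e-06 (edgeR), and in 11 alternatives the log2 fold change was 2.12 to 2.27. Its level was below that of the active zone genes Rbp, unc-13, Rim and Syd-1 in both groups, at 2.25 CPM per kb in PCD-blocked and 0.499 in control antennae. Spn, for the spinophilin scaffold, rose by 0.38 and nwk, for a membrane-bending protein of presynaptic endosomes, by 0.16 on the log2 scale. In the same list the adhesion genes Nrx-1 (neurexin) and Nlg3 (a neuroligin) fell by 0.16 and 0.28, and Liprin-gamma, a relative of Liprin-alpha, fell by 0.42. Nlg3 did not pass without pair 1 or 2 or with DESeq2, and Nrx-1 not without pair 2 or 3 or with library totals.

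In the release list, the vesicle membrane gene Syngr, the synaptotagmin gene Sytalpha and Rab3-GEF, whose product activates Rab3, rose by 0.23, 0.29 and 0.22 on the log2 scale. Syb, for a synaptobrevin also found outside neurons, fell, with 112, 113 and 107 CPM in PCD-blocked libraries against 136, 133 and 120 CPM in controls (log2 fold change -0.23 ± 0.04 SE, edgeR adjusted p = 0.00183). All PCD-blocked libraries lay below all controls for Syb, while for its neuronal counterpart nSyb they lay above. Rbcn-3A, for a regulator of the vesicular proton pump, fell by 0.16. In the endocytosis list the adaptor genes Eps-15 and lqf (epsin) fell by 0.29 and 0.23, while EndoB and Ehbp1 rose by 0.23 and 0.10. The call of Ehbp1 was lost in 6 of 11 alternatives, among them each pair left out, that of Rbcn-3A in 3 and that of EndoB in 1 (DESeq2). The general neuronal genes tau, fne, an elav paralog, and Fas2, an adhesion molecule, rose by 0.26, 0.23 and 0.17.

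In the transmitter list the fallen genes with the smallest p were Pu, t and Gat. Pu, which makes the cofactor of tyrosine hydroxylase, had 67.7, 63.4 and 67.8 CPM in PCD-blocked libraries, against 107, 95.0 and 94.2 CPM in controls (log2 fold change -0.57 ± 0.04 SE, edgeR adjusted p = 2.91e-05). The gene t (tan), for the hydrolase that frees amines from beta-alanine, fell by 0.43, while e (ebony), for the enzyme that joins them, rose to 9.03 ± 0.55 CPM in PCD-blocked antennae, against 3.12 ± 1.21 CPM in control antennae (SD, n = 3 each). Pu, t and e also act in the colouring of cuticle. Gat, a GABA transporter known from glia, fell by 0.44. The glutamine synthetase gene Gs1 rose by 0.45, and Tbh, which makes octopamine, rose by 0.67 to 3.55 ± 0.667 CPM in PCD-blocked antennae, against 2.21 ± 0.0629 CPM in controls (SD, n = 3 each). The call of Tbh was lost without any 1 of the pairs and with DESeq2.

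**Figure D5:**
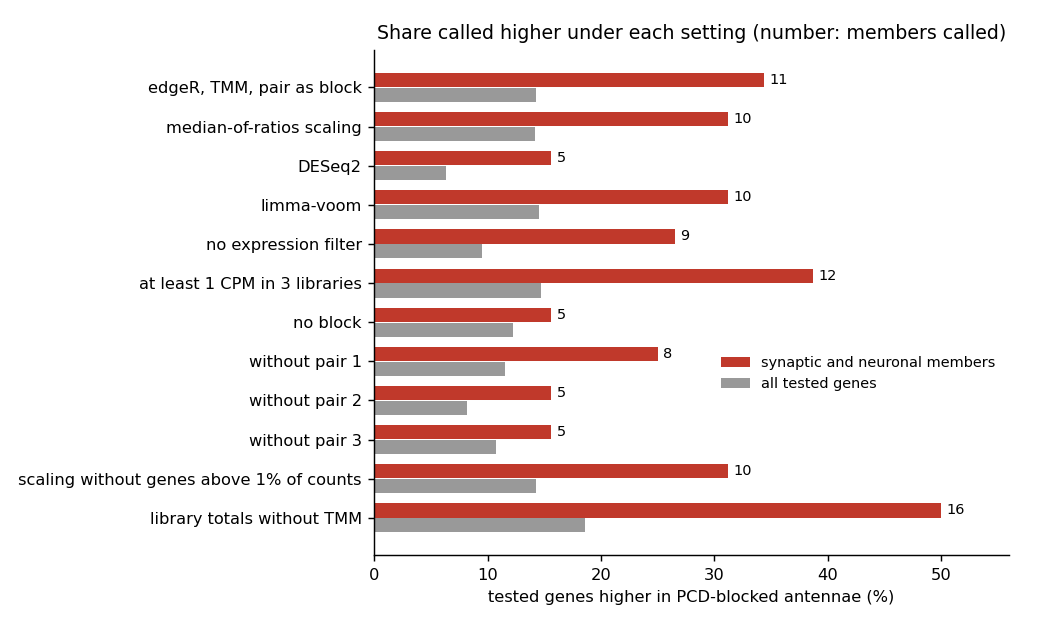
Percent of tested genes called higher in PCD-blocked antennae under each setting, for the synaptic and neuronal genes (red bars, with the number called) and for all tested genes (grey bars). The share of the synaptic and neuronal genes runs from 15.6%, or 5 genes, to 50%, or 16 genes, and the share of all genes from 6.33 to 18.6%.

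Under all 11 alternatives the share of the synaptic and neuronal genes called higher was above that of all tested genes, as the plot of shares by setting shows. The gap was narrowest without the block, at 15.6% against 12.2%. The alternatives refit the same libraries, and the genes were chosen with earlier results of these data known. These shares are thus not independent support for a difference from all genes. For the alternatives, the share among genes with a mean of at least 50 CPM was not counted. With no expression filter, 26.5% of the synaptic and neuronal genes were higher and 0 lower, where 9.52% and 9.88% of all genes were called. The calls of Cadps, Ace, Rbp and unc-13 held in all 11 alternatives, with adjusted p-values of at most 0.00864, 0.0103, 0.0305 and 0.0496. The other 7 calls were lost in at least 3 of them.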

How the data were processed

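The deposited values are counts, whole numbers per gene, with 1 file per library. BDGP6, HTSeq 0.9.1, STAR 2.5.3a and cutadapt 1.8 are the build and tools given, without settings, in the submitters' processing notes. Per the labels' protocols, libraries were made with a directional kit, and the strand setting of the counting is not given in the sources used here. The 5 rows of each file that name no gene (11.9 to 13.5% of counts) were left out. Coordinates, exon lengths and overlaps come from an Ensembl annotation of BDGP6. Of the 36 genes, 35 matched by symbol and Syd-1 by synonym.

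Genes were tested with edgeR 4.0.16 (R 4.3.3): default filter by group, TMM scaling, the sample pair as a block and adjustment over 9181 genes, with a threshold of 0.05. Fold changes are PCD-blocked minus control, and SE is the fold change over the root of F. The test was also run on simulated counts, which had no pair effects, and its recovery of small differences is not given here. The design text calls replicates biological. Replicates of a group differed beyond sampling noise (chi-square per degree of freedom 4.12 to 10.6). DESeq2 1.42.0 and limma-voom (limma 3.58.1) were among the alternatives.

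The 36 genes, their roles and the related lists were chosen with earlier results of these data known. Named were all 36 genes and, per related list, up to 3 genes past the threshold in each direction with the smallest p; Syd-1 was listed under both of its names and counted once, among the 36.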

Additional observations from a re-analysis of the deposited data

How the results depend on the processing

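Of 11 genes called higher, 4 kept their call in all 11 alternatives (other scalings, filters and tools, no block, each pair left out), and no called gene changed sign. The number called higher was 5 with DESeq2 and 5 with no block, and 5 to 8 with 1 pair left out; the number called lower was 0 to 1 with 1 pair left out. Other alternatives gave 9 to 16 higher. Of the related genes, 13 were higher with DESeq2 and 12 to 21 with 1 pair left out, against 24. The block rests on the sample pairs of the labels and the design text: deviations from group means correlated by 0.0688, 0.240 and -0.192 in pairs 1, 2 and 3, so the data did not show the pairing.

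Uncalled genes near 0 changed sign: Syt1 (0.00 without pair 3, 0.02 with library totals), Syx1A (-0.04 to 0.00 with 1 pair left out, 0.02 with library totals), EndoA (0.00 with no filter, 0.00 to 0.01 with 1 pair left out) and lap (0.00 with median-of-ratios scaling, with no block and with scaling without genes above 1% of counts, -0.01 with DESeq2 and with no filter, -0.03 without pair 3). Library totals moved the median of all genes by 0.04, close to the differences of many genes described here. The cause of these changes was not tested. Depth limits VGAT, VGlut and Gad1.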
